A study of Mus musculus with 16 samples.

Results

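The nuclear-encoded subunits of the respiratory chain were followed in livers of obese mice given G108, a long-acting glucagon receptor agonist, on 2 high fat diets that differed in protein content. Members were chosen by name alone: rows of the expression table that map to a protein-coding mouse gene named Nduf followed by a, b, c, s or v and a number, Sdha to Sdhd, a name starting with Uqcr, Cyc1, Cox4 to Cox8 with a letter a to c, or a name starting with Atp5. The rule found 84 rows of 55487, which carry 83 symbols because Atp5o stands in the table under 2 overlapping gene identifiers. By complex there were 37 rows for complex I, 4 for complex II, 9 for complex III, 16 for complex IV and 18 for complex V. No measured value entered the choice. A further 12 rows matched the names without being protein coding (11 processed pseudogenes and the non-coding Ndufb1-ps) and were left out, and the highest of them averaged 15.6 TPM (a gene's share of the length-corrected reads of its library).

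Male C57BL6/J mice, aged 10 weeks at the start by the sample records, had free access to a diet with 60% of its energy from fat for 8 weeks and were then allotted to a standard protein (SP) or high protein (HP) version of a high fat diet. Vehicle or G108 at 2.5 nmol/kg was injected under the skin daily for 22 days, and livers were taken after a 4 h fast on day 25. The methods of the study give a younger age, a shorter period on the first diet and an earlier day of cull. They also place the move to SP or HP before the first dose of G108, so that time on these diets was longer than treatment. Which of the accounts applies cannot be settled here. Crossing treatment and diet gave 4 groups of 4 mice, each mouse with 1 library, named by treatment and then diet (vehicle SP, for example). No chow-fed group was analysed here, so every group shares the obesity and the high fat feeding, and every level below is a level in an obese liver.

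The respiratory chain passes electrons from NADH (complex I) and from succinate (complex II) through coenzyme Q to complex III, cytochrome c and complex IV, where oxygen is reduced. Complexes I, III and IV pump protons out of the mitochondrial matrix and complex V, the ATP synthase, uses the return flow to make ATP. Most subunits are encoded in the nucleus and imported, while a small set is encoded by mitochondrial DNA, so that complexes I, III, IV and V are built from both genomes and complex II from the nuclear genome only. In liver the chain supports gluconeogenesis, urea synthesis and fat oxidation, the processes that glucagon drives.

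Promoters of these genes are known for recognition sequences of a few regulators, and 3 are shown because they belong to the members with the largest rises on SP (Atp5b and Sdhd) and to the most abundant complex IV member (Cox6a1). Each is the stretch upstream of the start sites of both RefSeq and GENCODE, written 5′ to 3′ on the gene's strand from RefSeq, GRCm38.p6. Capitals mark TGACGT, the core of the cAMP response element, in Atp5b, CTTCCGG, the ETS motif of GABP read on the opposite strand, in Sdhd, and the overlapping GCATGCG and CGCATGC, the NRF1 motif on either strand, in Cox6a1.
Atp5b, chr10:128083057-128083272, plus strand: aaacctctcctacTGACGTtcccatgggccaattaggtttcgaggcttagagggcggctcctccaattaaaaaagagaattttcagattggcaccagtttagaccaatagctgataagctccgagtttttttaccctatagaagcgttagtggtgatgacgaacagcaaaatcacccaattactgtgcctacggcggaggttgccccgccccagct
Sdhd, chr9:50603850-50604099, minus strand: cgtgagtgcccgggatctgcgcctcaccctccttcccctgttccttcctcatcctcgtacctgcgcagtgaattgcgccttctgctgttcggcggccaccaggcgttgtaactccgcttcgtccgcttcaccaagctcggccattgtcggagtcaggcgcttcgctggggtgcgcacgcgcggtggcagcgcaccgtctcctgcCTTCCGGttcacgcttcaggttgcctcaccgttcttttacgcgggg
Cox6a1, chr5:115348982-115349208, minus strand: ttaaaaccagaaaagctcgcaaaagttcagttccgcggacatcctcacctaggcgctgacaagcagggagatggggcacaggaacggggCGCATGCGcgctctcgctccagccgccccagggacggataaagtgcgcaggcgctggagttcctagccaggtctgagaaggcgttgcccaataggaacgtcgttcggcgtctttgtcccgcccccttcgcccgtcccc

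RefSeq gave 73 promoters for 68 of the 83 symbols. In the 250 bases before the start, on either strand, the NRF1 motif GCATGCG stood in 12.3% of the members' promoters and in 3.02% of all 32851 promoters. The ETS motif CCGGAAG stood in 16.4% against 6.91%, the YY1 motif ATGGCG in 13.7% against 5.73%, the cAMP response element core TGACGT in 13.7% against 6.47%, and the estrogen-related receptor motif AAGGTCA in 6.85% against 4.08%. These are matches of letters, not measured binding.

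The members' transcripts were a small share of each library, 0.380 to 0.534% of TPM in vehicle SP, 0.437 to 0.574% in vehicle HP, 0.715 to 0.796% in G108 SP and 0.531 to 0.736% in G108 HP. TPM is a share, and the Mup genes, which encode major urinary proteins, took 42.6 to 49.7% of it in vehicle SP and 18.3 to 23.0% in G108 SP. A gene whose transcripts do not change thus gains TPM with G108 on SP. On HP the Mup genes took 35.7 to 44.9% with vehicle and 18.2 to 29.6% with G108. Mitochondrial genes took 15.2 to 20.7% and 21.0 to 37.3% there. Values are therefore given as deposited and again after each library was scaled by its median ratio to a common reference, here called scaling, so that the typical gene is level between libraries. Over the 11839 genes tested, the median G108 difference on the deposited log2 scale was 0.60 on SP and 0.09 on HP, the median diet difference (HP less SP) was −0.35 under G108 and 0.14 under vehicle, and scaling brought all 4 to within 0.01 of 0. Depth recovered from the values was 27.8 to 45.0 M reads per library. Vehicle SP mouse 4 and G108 HP mouse 3 stood apart, with mitochondrial transcripts at 24.0 and 37.3% of TPM against 13.8 to 16.2% and 21.0 to 27.4% in the rest of their groups, and key results are given without them too. Hepatocyte markers summed to 29091 to 68217 TPM per liver, the skeletal muscle markers to 1.41 TPM at most and the adipocyte markers to 1.19 TPM at most. Kupffer cell markers summed to 25.2 to 96.6 TPM and red blood cell markers to 605 to 2106 TPM, and their part in the results was not tested. The 4 brown adipocyte markers summed to 6.97 to 30.9 TPM in vehicle SP, 18.1 to 31.2 in vehicle HP, 46.4 to 85.3 in G108 SP and 33.8 to 45.5 in G108 HP. That sum was nearly all Elovl3, the 1 marker of the 4 tested, which was higher with G108 on SP by 2.00 on the deposited scale and 1.25 after scaling, while the other 3, Ucp1 among them, averaged under 0.1 TPM, and the part of these cells was not tested. In bulk tissue, fewer cells of a type and less RNA per cell cannot be told apart.

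Of the 84 rows, 79 averaged at least 1 TPM and were tested, and the 5 that did not were Cox6a2, Cox6b2, Cox7b2, Cox8b and Cox8c. On SP, 73 of the 79 were higher with G108 than with vehicle on the deposited scale (limma, adjusted p under 0.05), and none was lower. Across all genes tested 77% were higher and 0.608% lower by the same rule. The members' median log2 fold change was 0.74 against 0.60 for all genes, and 52 of the 79 lay above that all-gene median. Without vehicle SP mouse 4 and G108 HP mouse 3 the count was 74 (93.7%, against 74.9% of all genes) and the members' median 0.62. The all-gene median of 0.60 is from all 16 libraries, and that of the smaller fit is not given.

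**Figure D1:**
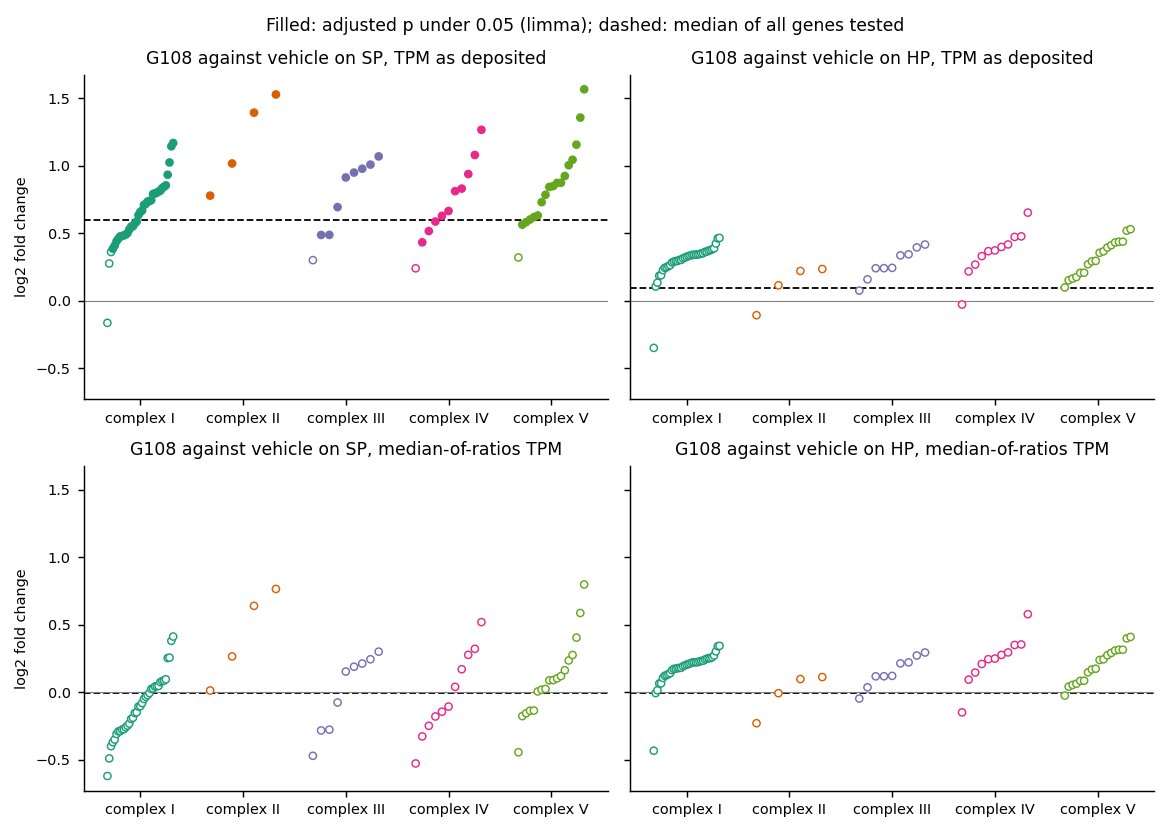
Log2 fold change (vertical axis) of each of the 79 tested members for G108 against vehicle on SP (left) and HP (right), on TPM as deposited (top) and after median-of-ratios scaling (bottom), arranged by complex in rising order. Filled points passed limma at an adjusted p under 0.05, and the dashed line is the median of all genes tested. The deposited values on SP lie on both sides of that line, from −0.16 to 1.57. After scaling the SP points straddle 0, while on HP 72 of the 79 lie above 0. The points of a panel share the same livers and are not independent.

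After median-of-ratios scaling 0 of the 79 members passed limma in that comparison, where 2.72% of all genes did. At an unadjusted p under 0.05 there were 9 (6 higher and 3 lower), or 11.4% of the members, against 17.7% of all genes, and voom on the recovered reads also called 0. The median member stood at 0.00, the complexes between −0.11 and 0.45, and single members between −0.62 and 0.80. A correction of each library for its slope on GC content called 11 members (9 higher and 2 lower), against 15.5% of all genes.

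On HP no member passed limma on either scale, where 1.11% of all genes passed on the deposited scale and 1.22% after scaling. The members' median on HP was 0.33 against 0.09 for all genes on the deposited scale, 75 of 79 lay above the all-gene median, and 34 (43.0%) had an unadjusted p under 0.05, all of them higher, against 11.9% of all genes. Leaving out 1 liver moved that 34 to between 4 (5.06%, against 7.04% of all genes, without vehicle HP mouse 4) and 42 (without vehicle HP mouse 1). After scaling the median was 0.20 against 0.00 and 72 of 79 values were above 0. The 79 come from the same livers and are not independent replicates, so these counts do not measure the spread between mice. The members' median had an SD between mice of 0.177 on either scale. After scaling 5 members (6.33%) had an unadjusted p under 0.05, against 11.3% of all genes. Of these 4 were higher and Ndufa4l2 was lower, and voom called 0. The 5 became 1 to 29 when 1 liver was left out, the 29 (36.7%, against 14.9% of all genes) without vehicle HP mouse 1. With array quality weights, which give less weight to libraries far from their group, 13 members were called after scaling (6.72% of all genes) and 47 on the deposited scale (18% of all genes), all higher. Those weights were lowest for vehicle SP mouse 4, at 0.162 on the deposited scale and 0.119 after scaling. On the deposited scale they were highest for vehicle HP mouse 3, at 10.7 against 0.567 to 1.14 for the other vehicle HP livers. Without vehicle SP mouse 4 and G108 HP mouse 3, 0 members passed on HP on either scale, with 53 (67.1%, against 14.9% of all genes) at an unadjusted p under 0.05 on the deposited scale and 7 (8.86%, against 11.4%) after scaling.

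Summed per liver, complex I subunits reached 1487 ± 148 TPM (SD, n = 4) in vehicle SP, 1645 ± 226 in vehicle HP, 2375 ± 149 in G108 SP and 2048 ± 202 in G108 HP. The sums for complex IV were 1052 ± 147, 1145 ± 179, 1672 ± 115 and 1449 ± 148 TPM in the same order, and those for complex III were 774.8 ± 70.8, 859 ± 115, 1234 ± 74.95 and 1049.8 ± 116. On SP the G108 livers lay above every vehicle liver for all 5 complexes on this scale. Complex II had the highest ratio, at 177 ± 64.6 TPM in vehicle SP and 379.8 ± 59.7 in G108 SP, a ratio of means of 2.15 against 1.59 to 1.60 for complexes I, III and IV and 1.89 for complex V. These ratios include vehicle SP mouse 4, and none is given without it. That liver had 93.1 TPM for complex II against 159 to 233 TPM in the rest of its group. For complex V it had 732 TPM against 1048 to 1276 TPM. After scaling the ratios on SP were 1.28 for complex II, 1.11 for complex V and 0.93 to 0.94 for the rest, and the groups overlapped for complexes I, III, IV and V. For complex II the scaled sums were 136 to 249 in vehicle SP and 253 to 283 in G108 SP, without overlap. Vehicle SP mouse 4 was the lowest of these sums at 136, against 230 to 249 in the rest of its group. In TPM recomputed without mitochondrial and Mup genes the complex II sums overlapped, at 279 to 581 in vehicle SP and 530 to 689 in G108 SP, with a ratio of 1.33.

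**Figure D2:**
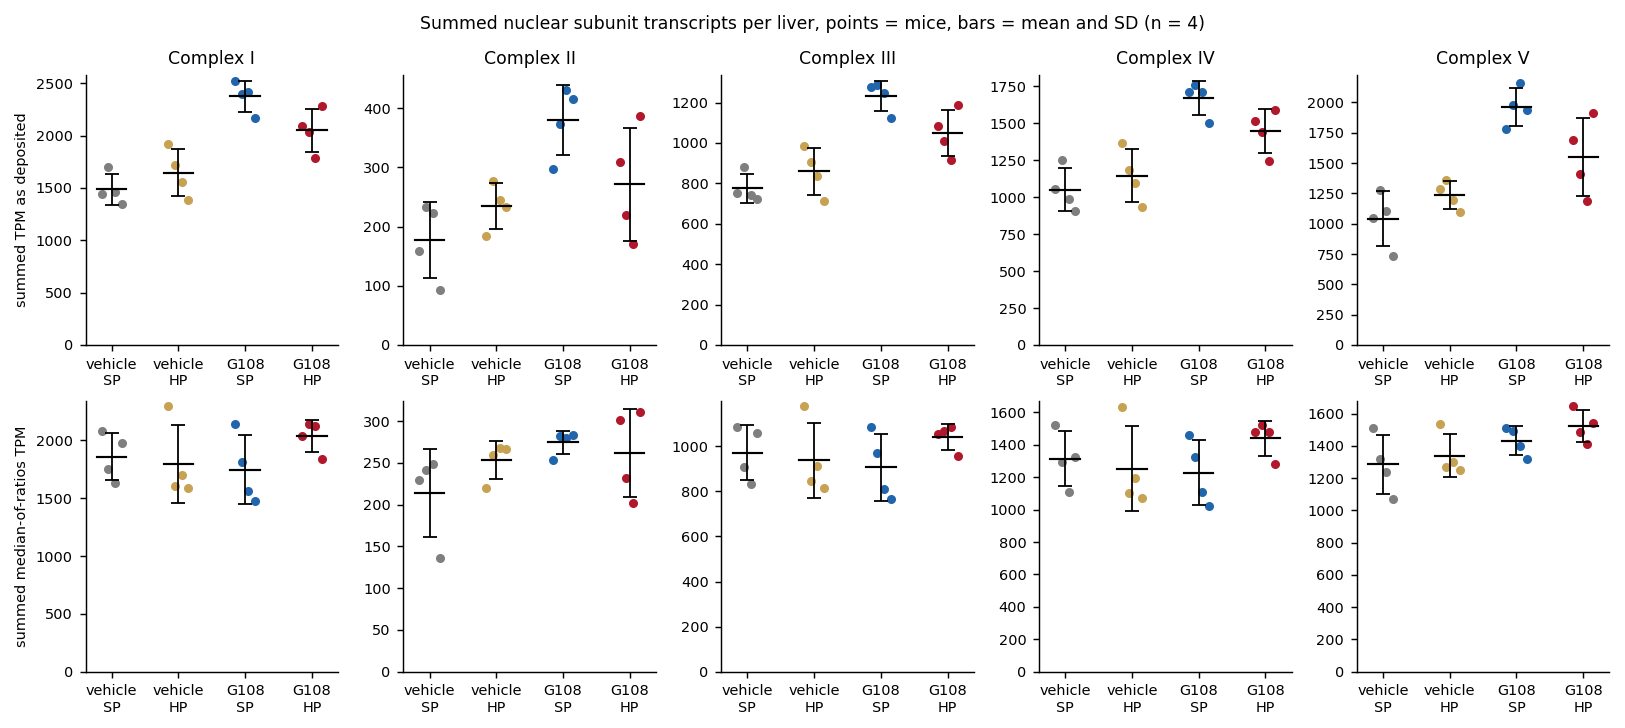
Summed nuclear subunit transcripts of complexes I to V (columns) in each liver, as deposited TPM (top row) and after median-of-ratios scaling (bottom row), each point a mouse, bars the mean and SD of 4 mice. On the deposited scale the G108 SP points clear the vehicle SP points in every complex, while after scaling only the complex II sums of these 2 groups stay apart.

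Complex I takes electrons from NADH, and its 7 nuclear core subunits carry the flavin and iron-sulphur clusters. Of the 37 members, 34 rose with G108 on SP on the deposited scale, where 77% of all genes did, and 0 passed after scaling. All 7 core subunits were among the 34. The median was 0.74 for the core and 0.58 for the 30 others, against 0.60 for all genes. The largest change was that of Ndufv1, which encodes the flavin-bearing subunit where NADH binds. Its level was 26.7, 34.8, 33.5 and 18.4 TPM in the vehicle SP livers and 53.4, 61.7, 71.3 and 67.8 TPM in the G108 SP livers. The groups did not overlap, and the log2 fold change was 1.17 ± 0.21 (SE; adjusted p = 9.0e-04). After scaling it was 0.41 (adjusted p = 0.079), and it was 0.30 with vehicle SP mouse 4 left out. On HP, Ndufv1 stood at 32.5 to 39.1 TPM with vehicle and 32.9 to 61.1 TPM with G108, overlapping groups with a log2 fold change of 0.34 ± 0.21 (adjusted p = 0.61).

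The most abundant complex I member by name was Ndufa4, whose product is now counted with complex IV. It averaged 96.6 ± 24 TPM in vehicle SP and 172 ± 19 TPM in G108 SP (log2 fold change 0.86 ± 0.18, adjusted p = 0.0018), and its scaled change was 0.08. Ndufa1, a small membrane subunit, and Ndufa5, an accessory subunit, did not pass on SP, at 0.28 and 0.36 on the deposited scale and −0.49 and −0.40 after scaling. Ndufa4l2, a hypoxia-responsive relative of Ndufa4, was the 1 member with a negative estimate there: 1.43, 1.75, 1.69 and 2.45 TPM with vehicle and 2.27, 1.87, 1.19 and 0.914 TPM with G108, overlapping groups with a log2 fold change of −0.16 ± 0.17 (SE; adjusted p = 0.39).

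Complex II, or succinate dehydrogenase, links the citric acid cycle to the chain and has 4 subunits. All 4 were higher with G108 on SP on the deposited scale, where 77% of all genes were, and 0 passed after scaling. Their median as deposited was 1.21, against 0.60 for all genes. Sdhd, a membrane anchor and the member whose promoter is printed above with an ETS motif, was at 49.6, 76.4, 71.5 and 18.02 TPM in vehicle SP and at 107.6, 127, 168 and 158 TPM in G108 SP. Every G108 liver was above every vehicle liver, with vehicle SP mouse 4 the lowest, and the log2 fold change was 1.53 ± 0.40 (adjusted p = 0.0041). Without that mouse it was 1.08 (adjusted p = 0.00964). After scaling it was 0.76 with all mice (adjusted p = 0.21) and 0.39 without mouse 4. With HP, Sdhd was at 52.4 to 93.4 TPM with vehicle and at 112, 69.0, 49.5 and 145 TPM with G108, a spread wider than the difference between the groups (log2 fold change 0.22 ± 0.40).

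Sdha, the catalytic flavoprotein, spread widely within groups, at 10.3 to 47.3 TPM in vehicle SP and 47.1 to 97.5 TPM in G108 SP, groups that overlapped slightly, with log2 fold changes of 1.40 ± 0.46 on SP and −0.11 ± 0.46 on HP. Sdhb, the iron-sulphur subunit, moved least of the 4 with 63.6 ± 10 TPM in vehicle SP and 109 ± 6.2 TPM in G108 SP (0.78 ± 0.15, adjusted p = 0.0010), and its scaled change was 0.01.

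Complex III hands electrons from reduced coenzyme Q to cytochrome c. On the deposited scale 8 of its 9 members rose with G108 on SP, where 77% of all genes did, and 0 passed after scaling. Uqcrfs1, the Rieske iron-sulphur protein, had the largest change: 80.6, 101, 96.2 and 55.0 TPM with vehicle and 158, 164, 186 and 178 TPM with G108, without overlap (1.07 ± 0.20, adjusted p = 9.6e-04). Cyc1, the other subunit with a redox centre here, gave 0.98. After scaling these were 0.30 (adjusted p = 0.19) and 0.21. Uqcrq, a small subunit and the most abundant of the complex, was the member that did not pass: 167, 198, 155 and 254 TPM with vehicle and 299, 248, 219 and 186 TPM with G108. The groups overlapped, with a log2 fold change of 0.30 ± 0.20 (adjusted p = 0.18) and −0.47 after scaling.

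Complex IV, cytochrome c oxidase, has its catalytic core encoded in mitochondrial DNA and a ring of nuclear subunits, several with a version found mainly in muscle or testis. Of 11 members tested, 10 rose with G108 on SP on the deposited scale, where 77% of all genes did, and 0 passed after scaling. Cox6a1, the liver version of subunit 6a, whose promoter above carries the NRF1 motif, took 27.5% of the complex's nuclear TPM, at 297 ± 61 TPM in vehicle SP, 328 ± 42 in vehicle HP, 454 ± 40 in G108 SP and 382 ± 52 in G108 HP. Its log2 fold change on SP was 0.63 ± 0.17 (adjusted p = 0.0046) and after scaling −0.15. The largest change was that of Cox7a2l, described as a factor that joins complexes III and IV into supercomplexes and not a structural subunit. Supercomplexes were not measured, and whether this gene's product forms them in this strain was not tested. Cox7a2l was at 18.9, 30.1, 31.5 and 9.25 TPM with vehicle and 40.7, 49.0, 60.0 and 53.3 TPM with G108 (1.27 ± 0.33, adjusted p = 0.0043, and 0.52 after scaling). On HP it did not differ beyond the spread, at 22.4 to 34.4 TPM with vehicle and 16.9 to 44.6 TPM with G108 (−0.03 ± 0.33).

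Cox7c, a small subunit, did not pass on SP, with 88.3, 103, 76.6 and 122 TPM in vehicle livers and 120, 120, 111 and 105 TPM in G108 livers (0.24 ± 0.17, adjusted p = 0.21, and −0.53 after scaling). The ubiquitous versions Cox6b1, Cox7a2, Cox7b and Cox8a rose by 0.67, 0.94, 0.59 and 0.81 on the deposited scale and lay between −0.18 and 0.17 after scaling. Of the versions found mainly in muscle or testis, Cox7b2 and Cox8c were listed at 0 in all 16 livers, Cox6a2 reached 0.135 TPM at most, Cox8b 0.326 TPM and Cox6b2 0.435 TPM. Cox7a1, the muscle version of subunit 7a, was the exception with 1.65 ± 0.72 TPM in vehicle SP and 3.72 ± 1.4 TPM in G108 SP (0.83 ± 0.25, adjusted p = 0.0089, and 0.28 after scaling), against 84.2 ± 21 and 159 ± 16 TPM for its partner Cox7a2. The summed muscle markers were 0.227 to 0.774 TPM in vehicle SP and 0.668 to 1.01 TPM in G108 SP, with 7 of the 8 markers under 0.1 TPM on average, and their part in the Cox7a1 values was not tested, nor was that of the brown adipocyte markers given above. The fewest reads behind a tested member in a library, 10, were those of Cox7a1, so that counting error is part of its spread.

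Complex V, the ATP synthase, gave 17 of 18 members higher with G108 on SP on the deposited scale. In the same fit 77% of all genes were higher, and after scaling 0 members of the complex passed. Atp5b, the beta subunit that forms the catalytic sites, had the largest change of all members. It was at 75.3, 113, 110 and 33.9 TPM in vehicle SP and at 157, 223, 274 and 267 TPM in G108 SP, so that the groups did not overlap and vehicle SP mouse 4 was again the lowest (1.57 ± 0.37, adjusted p = 0.0025). Without that mouse the log2 fold change was 1.19 (adjusted p = 0.00594). After scaling it was 0.80 (adjusted p = 0.14) with all mice and 0.50 without mouse 4. On HP, Atp5b was at 88.6, 150, 119 and 125 TPM with vehicle and at 173, 107, 83.2 and 228 TPM with G108, where the lowest liver of all 8 was a G108 liver, mouse 3 (0.21 ± 0.37).

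Atp5a1, the alpha subunit beside it, gave 1.36 ± 0.39 on SP and 0.10 ± 0.39 on HP. The c-ring genes Atp5g1, Atp5g2 and Atp5g3, which encode the same rotor protein, rose by 0.87, 0.93 and 1.01 on SP, and Atp5g1 had the lowest adjusted p of any member there, 6.7e-04. On HP, Atp5g1 also had the lowest adjusted p, 0.12, with 0.52 on the deposited scale. At the other end Atp5e, the small epsilon subunit of the same complex, was at 67.2, 72.2, 52.2 and 88.6 TPM with vehicle and 100.2, 87.2, 88.2 and 71.7 TPM with G108 on SP, overlapping groups with 0.32 ± 0.20 (adjusted p = 0.15) and −0.45 after scaling. The 2 overlapping Atp5o rows, whose reads could be divided between them, gave 0.87 and 0.85. Atp5s, an assembly factor rather than a subunit, stood at 1.79 ± 0.27 and 3.15 ± 0.69 TPM on SP (0.56 ± 0.13, adjusted p = 0.0027, and 0.02 after scaling).

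**Figure D3:**
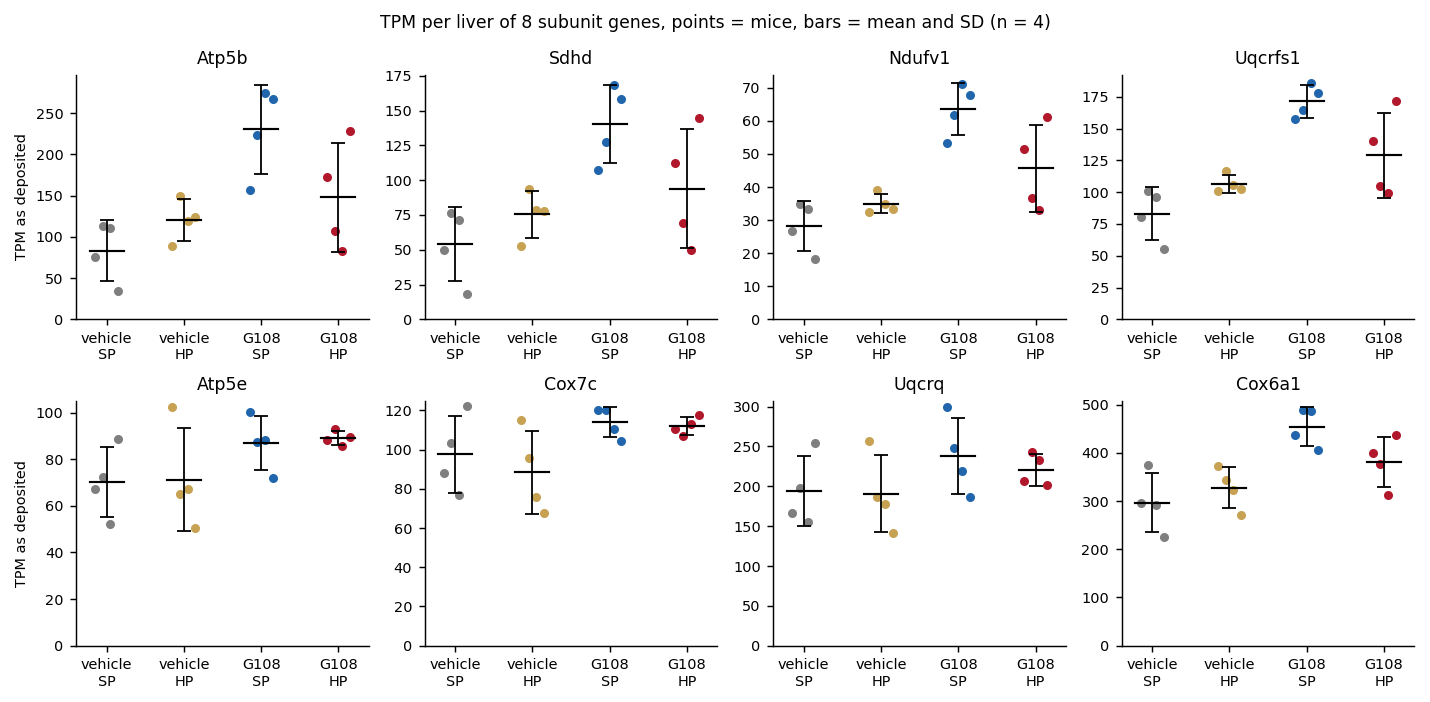
TPM as deposited (vertical axes, from 0) of 8 members in each liver, points for mice and bars for the mean and SD of 4 mice per group. Atp5b, Sdhd, Ndufv1 and Uqcrfs1 separate G108 SP from vehicle SP with G108 HP spread across both ranges, while Atp5e, Cox7c and Uqcrq overlap between all groups.

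The members' scaled estimates on SP had quartiles of −0.22 and 0.17, with a median SE of 0.16. Whether members differed from one another beyond that error was not tested. Across the 79, the scaled log2 fold change on SP had a Spearman rho of 0.39 with mRNA length, and on HP of −0.49, against 0.06 and −0.04 across 9209 tested coding genes. These correlations run across genes, which are not independent replicates, and share the same libraries and the same vehicle and G108 mice within each diet. The 30 members with an mRNA of at least 1000 bases had a scaled median of 0.14 on SP and 0.11 on HP, and the 49 shorter ones −0.14 and 0.22. The long-minus-short difference was also computed in each liver, as the median over the long members less that over the short ones of their log2 deviations from the mean of all livers. It was −0.20, 0.02, 0.17 and −0.60 in vehicle SP, −0.28, 0.12, 0.13 and 0.16 in vehicle HP, −0.15, 0.10, 0.27 and 0.29 in G108 SP and 0.07, −0.23, −0.27 and 0.20 in G108 HP. All 4 groups overlapped, with means of −0.15, 0.04, 0.13 and −0.06 and SDs of 0.34, 0.21, 0.20 and 0.23 in the same order. The lowest values were those of the livers with the highest mitochondrial share in 3 of the 4 groups (vehicle SP mouse 4, vehicle HP mouse 1 and G108 HP mouse 3), and its part in them was not tested.

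Diet alone was compared within vehicle and within G108. With vehicle, 0 of 79 members differed between HP and SP by limma, as 0% of all genes did on either scale. At an unadjusted p under 0.05 there were 0 members on either scale, against 3.16% of all genes on the deposited scale and 3.94% after scaling, and 0 to 12 (12 without vehicle SP mouse 2) and 0 to 4 (4 without vehicle HP mouse 1) with 1 liver left out. The median was 0.17 on the deposited scale and −0.03 after scaling. With G108, 0 of 79 passed on either scale (0% of all genes), with 7 at an unadjusted p under 0.05 on the deposited scale, all lower on HP, where 45% of all genes had such a p, and a median of −0.22 against −0.35 for all genes. With 1 liver left out the 7 became 0 to 28 (28 without G108 HP mouse 4, where 59.8% of all genes had such a p). The calls also changed, to 9 members lower on HP without G108 HP mouse 4 (11.4%, against 42.6% of all genes) and to 30 with array weights (38%, against 71.8%). After scaling 5 had an unadjusted p under 0.05, all higher on HP (5.4% of all genes), with a median of 0.19, and voom called 0. These 5 became 0 to 27 with 1 liver left out (27 without G108 SP mouse 1, against 8.43% of all genes), and array weights called 4 members, all higher on HP (5.06%, against 2.51% of all genes). The direction of the members' median between diets with G108 thus depends on the scaling. By complex the scaled medians were 0.23 for complex I, −0.16 for complex II, 0.08 for complex III, 0.20 for complex IV and 0.23 for complex V.

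Whether the G108 difference itself depended on diet was tested by the interaction, the difference on HP less that on SP. No member passed on either scale, as 0% of all genes did. On the deposited scale 30 members had an unadjusted p under 0.05, all with a smaller difference on HP, against 48% of all genes, and the medians were −0.41 and −0.49. With 1 liver left out the 30 became 10 (12.7%, against 30.2% of all genes, without G108 HP mouse 3) to 40 (50.6%, against 55.0%, without vehicle SP mouse 2). The largest estimates were −1.50 for Sdha, −1.36 for Atp5b, −1.31 for Sdhd and −1.30 for Cox7a2l, with adjusted p of 0.0799 to 0.0893. After scaling 7 had an unadjusted p under 0.05 (7.22% of all genes), all with a larger difference on HP, the median was 0.22 and voom called 0, while Atp5b stood at −0.71 and Ndufa1 at 0.83. The 7 became 1 to 32 with 1 liver left out, the 32 (40.5%, against 14.1% of all genes) without vehicle HP mouse 1. Leaving out single libraries changed the count on the deposited scale from 0 to 27 without G108 HP mouse 4 (34.2%, against 43.9% of all genes in that fit), 17 without vehicle SP mouse 2 (21.5%, against 29.3%) and 7 without G108 SP mouse 1 (8.86%, against 33.4%), and array weights gave 27 (34.2%, against 61.4%). It was 0 without vehicle SP mouse 4 and G108 HP mouse 3 together. With that pair left out, 3 members (3.8%, against 24.6% of all genes) had an unadjusted p under 0.05 on the deposited scale.

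The 13 subunits encoded by mitochondrial DNA complete complexes I, III, IV and V. None of them passed limma for G108 on either diet on the deposited scale, where 77.6% of all genes passed on SP and 1.11% on HP. Their medians were 0.16 on SP and 0.64 on HP, against 0.60 and 0.09 for all genes. At an unadjusted p under 0.05 there were 0 of 13 on SP and all 13 on HP, against 79.8% and 11.9% of all genes. After scaling none passed either (2.72% and 1.22% of all genes did), with medians of −0.62 and 0.52. An unadjusted p under 0.05 was then found for 5 of 13 on SP (all lower) and 1 of 13 on HP (higher), against 17.7% and 11.3% of all genes. Their sum as deposited was 235777 TPM in G108 HP mouse 3, 129544 to 168086 TPM in the rest of that group and 91724 to 116914 TPM in vehicle HP. Within a liver the ratio of mitochondrial to nuclear TPM does not depend on the scaling. A lower ratio on SP need not be particular to the members, whose scaled median there was 0.00, against −0.01 for all genes. The ratio to other nuclear genes was not computed. Summed over the 4 complexes plus the nuclear complex II members, the ratio was 22.2, 18.01, 18.8 and 37.0 in vehicle SP and 15.3, 16.5, 13.5 and 15.1 in G108 SP, without overlap. On HP it was 20.4, 19.2, 21.7 and 21.0 with vehicle and 19.7, 27.5, 44.4 and 17.6 with G108, where the G108 livers fell on both sides of the vehicle livers. For complex V the ratio was 22.3 to 57.0 in vehicle SP and 14.7 to 18.2 in G108 SP, and for complex I the groups overlapped at 16.4 to 29.6 against 12.3 to 16.5.

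**Figure D4:**
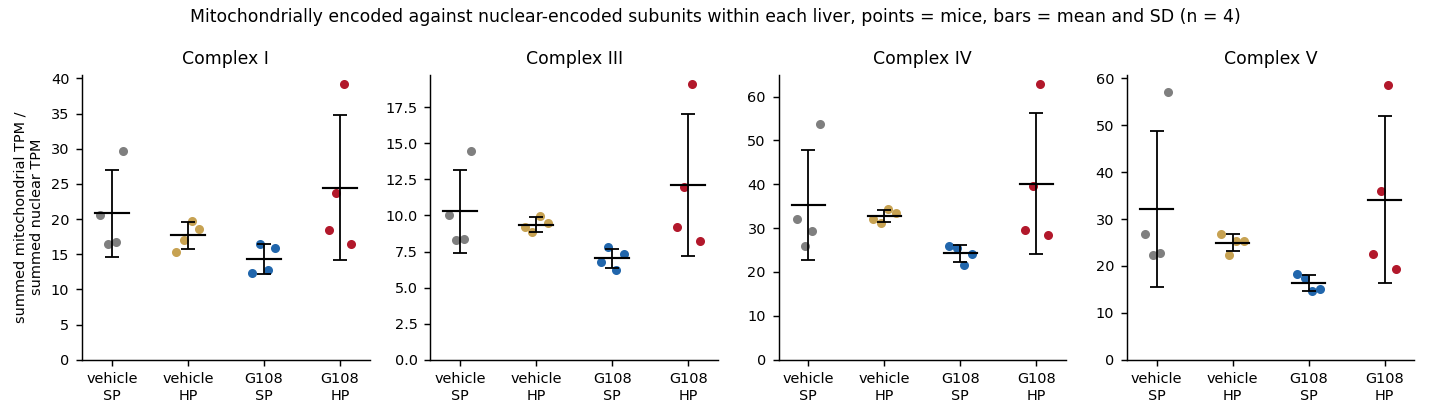
Ratio of summed mitochondrially encoded TPM to summed nuclear-encoded TPM (vertical axes, from 0) for the complexes built from both genomes, points for mice and bars for the mean and SD of 4 mice. G108 SP livers are lowest for complexes III, IV and V, and vehicle SP mouse 4 and G108 HP mouse 3 are the highest of their groups in all 4 complexes.

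Genes that build or regulate the chain were counted from lists. On the deposited scale on SP, 12 of 14 complex I assembly factors, 2 of 3 for complex II, 4 of 5 for complex III, 17 of 22 for complex IV and 4 of 4 for complex V were higher with G108 and none was lower, beside 77% of all genes higher in the same fit. After scaling none was higher on SP, and 1 complex I factor (Tmem186, −0.36) and 1 complex IV factor (Cox19, −0.53) were lower. Both were named after their values were seen, and 2.72% of all genes passed in that fit. On HP none passed on either scale, where 1.11% of all genes passed as deposited and 1.22% after scaling. Ndufaf6, which complex I assembly needs, had the largest change among the complex I factors on SP, from 6.59 ± 1.8 to 16.3 ± 2.4 TPM (1.21 ± 0.19, adjusted p = 3.9e-04, and 0.51 after scaling with adjusted p = 0.084). The subunit genes that the naming rule misses, Cox4i1, Ndufab1 and cytochrome c itself (Cycs), were higher on SP by 0.76, 0.74 and 0.58 on the deposited scale and lay between −0.17 and 0.04 after scaling. Among 8 tested regulators of these genes, all 8 were higher on SP on the deposited scale (77% of all genes). On HP 1 was higher on that scale, where 1.11% of all genes passed in either direction. After scaling 1 passed on each diet, against 2.72% of all genes on SP and 1.22% on HP. That gene was Ppargc1a, the coactivator PGC-1 alpha, known to be induced by glucagon through cAMP. Ppargc1a rose from 0.741 ± 0.28 to 3.56 ± 0.96 TPM on SP and from 0.907 ± 0.091 to 2.18 ± 0.48 TPM on HP, with scaled log2 fold changes of 0.89 (adjusted p = 0.0027) and 0.66 (adjusted p = 0.034). Esrra, which encodes estrogen-related receptor alpha, rose by 0.71 on SP on the deposited scale and stood at 0.00 after scaling. Tfam, the mitochondrial transcription factor A, rose by 0.84 on SP and stood at 0.19 after scaling.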

How the data were processed

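Livers of 16 mice in 4 groups of 4 were profiled by RNA sequencing of total RNA. By the study's methods the authors aligned reads with HISAT2 to GRCm38, counted them per gene and deposited TPM values, made from counts and exon length. The authors' own DESeq2 comparisons were not used, and every sample column was mapped to a mouse by its label. TPM was transformed as log2(TPM + 1), which understates the change of low genes, genes averaging at least 1 TPM were kept (11839), and all 16 libraries were fitted in 1 limma trend model (limma 3.58.1, R 4.3.3) with Benjamini-Hochberg adjustment over all genes and a two-sided call at an adjusted p under 0.05. The 5 comparisons were G108 against vehicle on each diet, HP against SP within each treatment, and their interaction. The same model was run on TPM after median-of-ratios scaling over 11591 genes. Alternatives were the pseudocount, the filter, other scalings, GC and length slopes, voom on recovered reads, array weights, a replicate block and leaving out each liver.

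TPM keeps no depth by itself, but once exon length was allowed for, 98.8% of low values fell at whole reads to a tolerance of 0.02, which gave reads per library and the counts behind each member (median 2528). On simulated data the SP comparison recovered 76.5% of 200 genes changed by 1 on the log2 scale among 11839. Members named were, per complex, the highest in TPM and those with the largest and the smallest change on SP, the tissue-restricted isoforms with their liver partners, and matches that are not structural subunits, with up to 3 genes per list. Ndufa1, Ndufa5, Sdha, Cyc1, Atp5a1 and the Atp5g genes, and any other name outside that rule, were chosen after their values were seen. Members and lists were chosen with earlier results of these data known. Array weights after scaling, and leaving out vehicle SP mouse 4 and G108 HP mouse 3 together, were added after seeing the data. Mouse numbers did not pair the samples (correlations of −0.43 to 0.44). Gene positions and lengths are from GENCODE and promoters from RefSeq. Replicates were separate mice.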

Additional observations from a re-analysis of the deposited data

Results flagged for a closer look

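In groups of 4 livers, the gap between the highest or lowest liver and the next, over the whole range, was examined for 140 sets of values, of which 2 passed the 95% critical value, where chance passes about 1 in 20. Cox6b1 was at 189 TPM in G108 HP mouse 3, with the other livers of that group at 220.5 to 222 TPM. The ratio of mitochondrial to nuclear TPM for complex V was 57.0 in vehicle SP mouse 4, with the others at 22.3 to 26.8.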

How the results depend on the processing

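Under median-of-ratios scaling and in TPM without mitochondrial and Mup genes, 0 members were called for G108 on SP, with medians of 0.00472 and 0.066. The latter gave a median of 0.13 on HP, and the pair of scalings gave 0.19 and 0.048 for diet with G108, −0.026 and −0.032 for diet with vehicle, and 0.22 and 0.087 for the interaction. As deposited the interaction median moved from −0.41 to −0.22 without vehicle SP mouse 4 and G108 HP mouse 3. Ratios of summed TPM on SP under the 2 scalings were 0.939 and 0.979 for complex I, 0.934 and 0.975 for complex III, 0.935 and 0.975 for complex IV, 1.11 and 1.16 for complex V, 0.990 and 1.03 for all members, and 1.28 and 1.33 for complex II. Log2 fold changes on SP that turned negative were −0.47 and −0.41 for Uqcrq, −0.15 and −0.081 for Cox6a1, −0.11 and −0.043 for Cox6b1, −0.18 and −0.12 for Cox7b, −0.53 and −0.47 for Cox7c, and −0.45 and −0.39 for Atp5e, and Ndufa4 was −0.014 on HP under the second. The second leaves the Mup genes out by construction.

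Array weights called 47 members on HP (18% of all genes), 30 for diet with G108 (71.8%) and 27 for the interaction (61.4%) on the deposited scale, and after scaling 7 on SP (15.4%), 13 on HP (6.72%) and 4 for diet with G108 (2.51%), with an interaction median of 0.41. After scaling a GC slope called 11 on SP (15.5% of all genes) and an exon length slope 1 (3.08%), with an interaction median of 0.030. Near-zero scaled values turned sign on SP for Ndufa4 (−0.10), Sdhb (−0.044), Cox8a (−0.088) and Atp5s (−0.00776) with array weights, for Atp5s with a GC slope (−0.044) and voom (−0.022), and for Ndufa4 (−0.027), Sdhb (−0.0082) and Cox8a (−0.030) without the pair of livers. On HP they turned for Ndufa4 with a length slope (−0.030), Uqcrq with a GC slope (−0.033) and Cox7a2l with a GC slope (0.020) and without the pair (0.0067, and 0.21 as deposited). The cause was not tested.

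Leaving out each liver in turn gave 65 to 74 calls on SP, where 66.3 to 79.0% of all genes were called. The 65 were without G108 SP mouse 1 (82.3%, against 78.0% of all genes). Diet with G108 gave 0 to 9: 9 without G108 HP mouse 4 (42.6% of all genes), 2 without vehicle SP mouse 4 (14.7%) and 1 without G108 SP mouse 1 (25.4%). The interaction gave 0 to 27 (27 without G108 HP mouse 4, 43.9% of all genes). After scaling there were 0 to 1 on SP (Ndufa4l2, limma adjusted p = 0.039, without G108 SP mouse 1, 3.98% of all genes). Log2 fold changes that crossed 0 ranged, on HP as deposited, from −0.036 to 0.45 for Atp5b, −0.025 to 0.48 for Sdhd and −0.24 to 0.21 for Cox7a2l, and after scaling from −0.059 to 0.24, −0.048 to 0.28 and −0.26 to 0.0067, with Atp5s at −0.0067 to 0.12. On SP after scaling they ranged from −0.11 to 0.13 for Atp5s, −0.030 to 0.12 for Cox8a, −0.044 to 0.19 for Ndufa4 and −0.039 to 0.063 for Sdhb. With mouse number as a replicate block, 72 members were called on SP (75.6% of all genes) and 0 in the other comparisons and in each comparison after scaling, although the numbers did not pair the samples.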
